A study of Mus musculus with 96 samples.

Results

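The Iroquois genes Irx1, Irx2, Irx3 and Irx5, the single-minded genes Sim1 and Sim2, the AP-2 genes Tfap2a and Tfap2b, and the POU-domain gene Pou3f3 were followed along the mouse nephron and collecting duct. They are 9 of the 54532 genes in the transcript table, chosen by symbol as transcription factors known for patterning the nephron, and all 9 passed the filter on low values that left 33793 genes. The kidneys came from male C57BL/6 mice aged 6 to 8 weeks given ordinary chow and water, and the labels name no treatment and no genotype other than the strain. Glomeruli and 14 tubule segments were dissected by hand, and 93 RNA-seq libraries were made from them.

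In anatomical order the 15 groups began with the glomerulus (GL) and 3 parts of the proximal tubule: its convoluted beginning (PTS1), the straight portion of the medullary rays (PTS2) and the final portion of the outer stripe (PTS3). The thin limbs were divided into the descending limb of short loops (DTL1), that of long loops above (DTL2) and within (DTL3) the inner medulla, and the ascending thin limb (ATL). The thick ascending limb came as a medullary (MTAL) and a cortical (CTAL) piece. Beyond it lay the distal convoluted tubule or DCT, the connecting tubule or CNT, and 3 levels of the collecting duct, cortical (CCD), outer medullary (OMCD) and inner medullary (IMCD). The libraries came from 53 mice, 3 to 5 in each group, and the pieces of a mouse were averaged before any comparison. The study counts as many mice as there are pairs of segment and mouse number, so each difference between segments is also a difference between animals. Levels are in TPM, an abundance scaled for gene length and library, given as the mean ± SD over mice. Differences are on the log2(TPM + 1) scale with their standard error (SE), tested by limma with Benjamini-Hochberg adjustment over all genes. A difference was called where the adjusted p was under 0.05 and the log2 difference was at least 1.

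Iroquois proteins are homeodomain factors whose genes lie in clusters, and they are known from frog and fish kidneys for specifying the middle of the nephron. Pou3f3, also called Brn1, is needed for the loop of Henle to form and mature. Tfap2a and Tfap2b encode AP-2 factors that bind a GC-rich palindrome as dimers, and Tfap2b is required for the distal tubule. Sim1 and Sim2 encode bHLH-PAS proteins that bind DNA together with ARNT or ARNT2. In RefSeq (GRCm38.p6) Irx1, Irx2 and Irx4 are successive coding genes of one cluster, and Irx3, Irx5 and Irx6 follow Fto in the other.

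The promoter table of RefSeq held windows for 6 of the 9 genes. The 250 bases before the start site are printed for Irx2 and Sim1, because each held a match to the motif of another family studied here, and for Tfap2b, the only one of the 9 genes that marked a single segment. Capitals mark GCCNNNGGC, the AP-2 motif, and ACANNTGT, the Iroquois motif, each searched on both strands. The Irx2 window lies at chr13:72628570-72628819, that of Sim1 at chr10:50895401-50895650 and that of Tfap2b at chr1:19211804-19212053, all on the plus strand of GRCm38.p6.
Irx2: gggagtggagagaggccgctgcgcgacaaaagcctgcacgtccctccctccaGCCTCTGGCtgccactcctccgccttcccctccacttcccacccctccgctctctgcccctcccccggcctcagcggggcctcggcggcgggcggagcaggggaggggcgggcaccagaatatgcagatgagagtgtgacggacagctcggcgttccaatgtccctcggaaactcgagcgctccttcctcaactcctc
Sim1: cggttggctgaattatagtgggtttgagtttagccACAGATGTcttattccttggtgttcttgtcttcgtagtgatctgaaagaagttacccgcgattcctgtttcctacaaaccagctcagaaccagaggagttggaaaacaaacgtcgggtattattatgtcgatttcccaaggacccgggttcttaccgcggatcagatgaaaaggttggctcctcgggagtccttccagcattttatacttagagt
Tfap2b: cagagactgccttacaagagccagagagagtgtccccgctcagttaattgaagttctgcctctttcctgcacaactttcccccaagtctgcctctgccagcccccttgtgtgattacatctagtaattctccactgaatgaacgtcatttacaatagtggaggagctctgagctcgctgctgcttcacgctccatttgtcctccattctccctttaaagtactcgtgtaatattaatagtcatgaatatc
The AP-2 letters occurred once in the Irx2 window and in no other window of the 9 genes, against 13.7% of the 32851 windows in the table. The Iroquois letters occurred once in the Sim1 window alone, against 6.31% of all windows. The octamer ATGCAAAT of POU factors was in 0 of the 7 windows of these genes and in 1.6% of all windows. The ARNT core ACGTG was in the Irx2 window and in 16.6% of all windows. Irx2 also had the highest GC content of the 7 windows, 68.4%, where the median of all windows was 52.4%. These matches describe letters, and binding was not measured.

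Each of the 9 genes differed among the 15 groups in the moderated F-test, as did 93.9% of all genes tested, with adjusted p from 7.13e-37 for Irx2 to 3.38e-15 for Tfap2a. The range between the highest and lowest group means was widest for Tfap2b, 7.59 on the log2 scale, and narrowest for Tfap2a, 2.72. The SD between mice of one group was 0.27 for Irx1 to 0.50 for Sim2, and the SD between pieces of one mouse was 0.20 for Sim1 to 0.43 for Tfap2b. Over the 14 pairs of neighbouring segments, 38 of the 126 differences of these genes were called, against 17.5% of the differences of all genes at the same pairs.

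**Figure D1:**
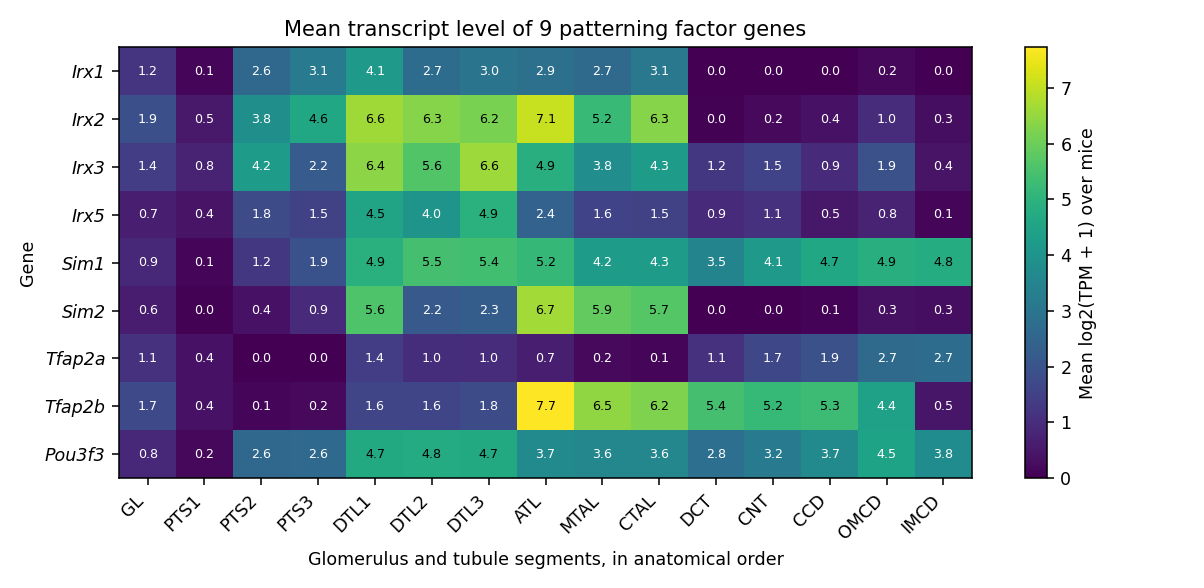
Mean log2(TPM + 1) over 3 to 5 mice of each of the 9 genes (rows) in the 15 groups (columns, anatomical order), with the value printed in each cell. Irx1, Irx2 and Sim2 are low from the DCT on, at 1.0 or less, Tfap2b begins at the ATL and ends before the IMCD, and Sim1 and Pou3f3 run on through the collecting duct.

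The labelled segments were compared with marker genes, not all of which were highest in the segment they are listed for. The podocyte gene Podxl was at 2391 ± 486 TPM (n = 3) in GL and had no mean above 30.9 TPM elsewhere, and Slc12a1 of the thick limb was at 4116 TPM in MTAL and 6135 in CTAL and at no mean above 30.9 TPM elsewhere. Cldn16, also listed for the thick limb, was at 570 ± 193 TPM in ATL, 53.4 ± 40 in MTAL and 482 ± 23.8 in CTAL. The PTS3 genes Slc22a7 and Slc7a13 had higher means in PTS2 (2468 and 2045 TPM) than in PTS3 (1460 and 1502), and the PTS2 gene Slc22a8 was higher in PTS1 (258 TPM) than in PTS2 (56.4). Aqp1, the water channel of long descending limbs, was at 6582 TPM in DTL2 and 11647 in DTL3 but at 97.4 in DTL1, under its 519 in PTS2. Material from other cells was measurable in some thin limb libraries. Summed TPM of 5 endothelial genes was 1110 to 1318 in DTL1, 436 to 718 in DTL2 and 344 to 630 in DTL3, against 3864 to 3948 in GL and 21.3 to 233 in the other groups. Transcripts of 1459 odorant and vomeronasal receptor genes, which served as a background, reached 1 TPM for 637 to 747 genes in DTL1, 405 to 449 in DTL3, 221 to 306 in DTL2 and 316 to 730 in GL. The 4 ATL mice fell into pairs by this measure, mice 2 and 3 with 23 and 15 such genes, mice 4 and 6 with 517 and 588. In MTAL, CTAL, DCT, CNT, CCD, PTS2 and PTS3 at most 5 receptor genes reached 1 TPM, and in PTS1 and IMCD at most 19. In OMCD 59 to 195 did, and 95% of the receptor genes lay under 0.89 to 1.68 TPM there. The part of endothelial and receptor transcripts in the differences given here was not tested. In bulk pieces, fewer cells of a type and less RNA per cell cannot be told apart.

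Among the Iroquois genes, Irx2 and Irx1 shared one outline. Both were near 0 in PTS1, present from PTS2 through the whole loop of Henle, and near 0 again from the DCT to the end of the collecting duct. Irx2 was the more abundant, with its highest mean in ATL, 136 ± 29.4 TPM (n = 4), and Irx1 had its highest mean in DTL1, 16.9 ± 2.52 TPM (n = 3).

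Irx2 was listed at 0.4, 0.49 and 0.48 TPM in the 3 PTS1 mice and at 13.1, 11, 15.4, 14.4 and 14.6 TPM in the 5 PTS2 mice. The step of 3.31 (SE 0.21, adjusted p = 2.24e-17), 9.91-fold on this scale, separated every PTS2 mouse from every PTS1 mouse. PTS3 followed with 24.6 ± 2.26 TPM and DTL1 with 114, 99.8 and 84.3 TPM. Irx2 stood 2.01 higher in DTL1 than in PTS3 (SE 0.23, adjusted p = 4.86e-10), where the median of all genes was already 1.33 higher. This call was lost after median ratio rescaling, with a PTS3 minus DTL1 difference of -0.92. The 3 descending limb groups, DTL1 at 99.5 ± 15.1, DTL2 at 82.8 ± 30 and DTL3 at 74.3 ± 20.2 TPM, overlapped among mice.

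The ascending limb was uneven for Irx2. On the log2(TPM + 1) scale the ATL mice were at 6.73, 6.91, 7.42 and 7.24 and the MTAL mice, from 32.7 to 41.1 TPM, at 5.13, 5.39 and 5.06. The CTAL mice, from 69 to 87.7 TPM, were at 6.47, 6.37, 6.13, 6.25 and 6.38. All ATL mice lay above all CTAL mice, and all CTAL mice above all MTAL mice. Irx2 was lower in MTAL than in ATL by 1.88 (SE 0.22, adjusted p = 1.48e-09) and higher again in CTAL by 1.13 (SE 0.21, adjusted p = 0.00019). The second step was the only called MTAL to CTAL difference among the 9 genes, where 2.57% of all genes were called higher in CTAL. With a pseudocount of 0.1 the MTAL minus CTAL difference was -1.15 with a larger error (SE 0.37, adjusted p = 0.0552), and after quantile normalization the difference lay just under the minimum of 1.

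Irx1 was at 0.065, 0.295 and 0 TPM in PTS1 and between 4.45 and 5.87 TPM in the PTS2 mice. Its step of 2.43 (SE 0.21, adjusted p = 9.76e-13) was called, and the means of PTS2, PTS3, DTL2, DTL3, ATL, MTAL and CTAL lay between 5.07 and 7.94 TPM, with no call between neighbours in that order of levels. The DTL1 mice were at 17.7, 18.9 and 14 TPM, above each mouse of every other group and above 95% of the receptor genes of the same mouse. Irx1 was 1.41 higher in DTL1 than in DTL2 (SE 0.24, adjusted p = 8.26e-06), in a comparison where 25.2% of all genes were called higher in DTL1, and the difference was 0.85 after quantile normalization. Its margin over the next group, PTS3, was 0.99 (SE 0.24, adjusted p = 0.00498), which falls short of the minimum difference of 1, and with mice rescaled by the median ratio of shared genes PTS3 became its highest group.

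**Figure D2:**
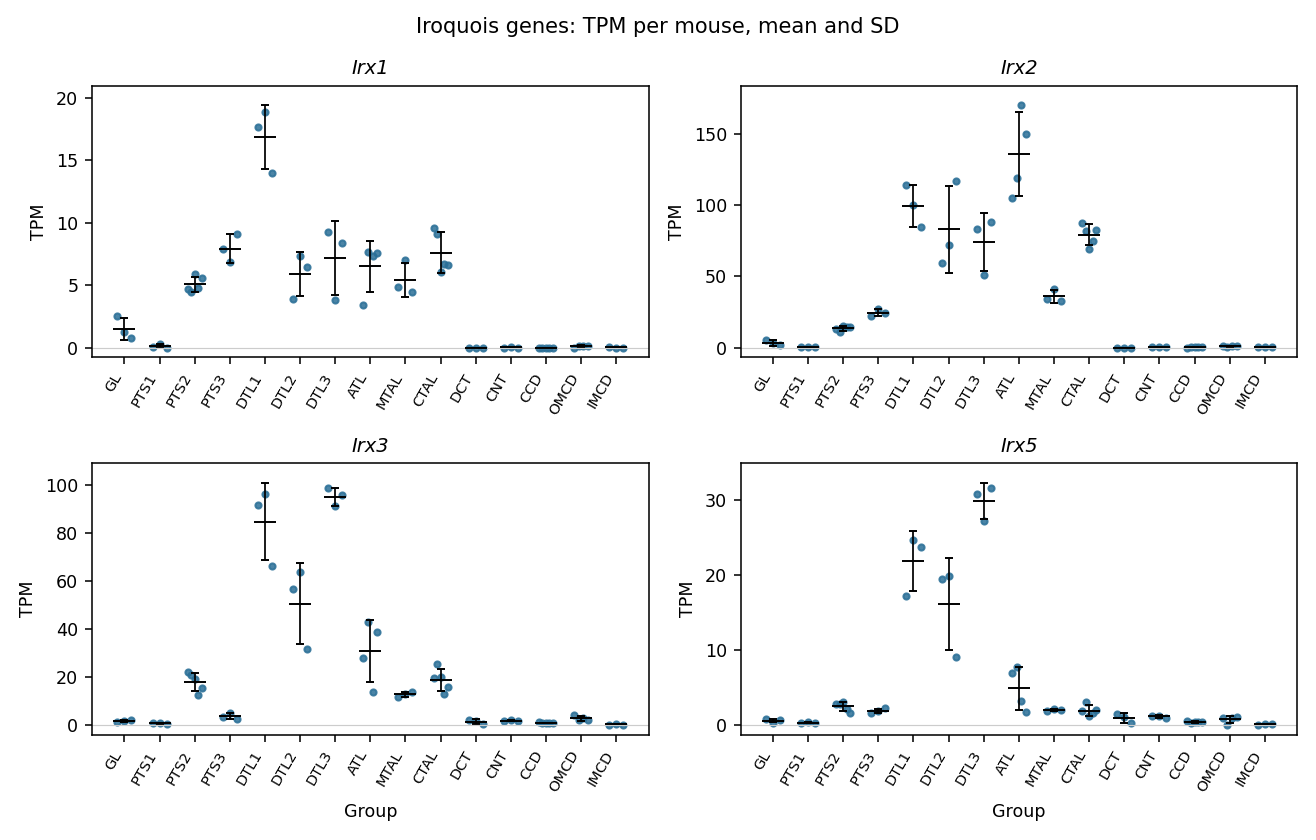
TPM of Irx1, Irx2, Irx3 and Irx5 in each mouse (points) by group in anatomical order, with the mean and SD over mice (bars). The highest mean of Irx1 is in DTL1, that of Irx2 in ATL, and those of Irx3 and Irx5 in DTL3, and all 4 genes are low in PTS1 and from DCT on.

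Irx3 and Irx5, neighbours in the other cluster, had their highest means in the inner medullary descending limb. Irx3 reached 98.7, 91.2 and 95.9 TPM in the DTL3 mice and Irx5 30.8, 27.1 and 31.6 TPM. DTL1 came second for both, at 84.9 ± 16.2 and 21.9 ± 4.02 TPM, and these top groups did not differ past the threshold (adjusted p = 0.633 for Irx3). Both genes were called higher in each descending limb group than in MTAL and CTAL, and higher in DTL1 and DTL3 than in ATL, whereas between DTL2 and ATL Irx5 was called and Irx3 was not (0.75, SE 0.27, adjusted p = 0.0359).

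In the proximal tubule Irx3 showed a peak in the middle. It was at 0.935, 0.78 and 0.5 TPM in PTS1, at 22, 20.9, 19.1, 12.8 and 15.7 TPM in PTS2, and at 3.38, 5.08 and 2.81 TPM in PTS3. The PTS2 mice were above all others of the proximal tubule. Irx3 was higher in PTS2 than in PTS1 by 3.45 (SE 0.26, adjusted p = 3.81e-15) and than in PTS3 by 2.02 (SE 0.26, adjusted p = 5.83e-08). It was the only one of the 9 genes called between PTS2 and PTS3, where 3.94% of all genes were called higher in PTS2. Irx5 was at 0.27 to 0.44 TPM in PTS1, 1.69 to 3.15 TPM in PTS2 and 1.66 to 2.25 TPM in PTS3, with a called step of 1.38 between the first pair (SE 0.26, adjusted p = 5.92e-05). Irx1 and Irx2 had higher means in PTS3 than in PTS2, by 0.57 and 0.80, neither of which was called.

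From PTS3 to DTL1 Irx3 was higher by 4.19 (SE 0.29, adjusted p = 7.68e-17), 18.2-fold on this scale, and Irx5 by 2.99 (SE 0.29, adjusted p = 5.3e-12). Both exceeded the shift of 1.33 in all genes. From DTL3 to ATL Irx3 was lower by 1.71 (SE 0.27, adjusted p = 1.89e-06) and Irx5 by 2.53 (SE 0.28, adjusted p = 5.29e-10), against 11.8% of all genes called higher in DTL3. The ATL mice differed among themselves, with Irx5 at 6.94 TPM in mouse 2, 7.77 in mouse 3, 3.17 in mouse 4 and 1.8 in mouse 6, the last 2 being the pair with many receptor transcripts. The DTL3 to ATL difference of Irx5 was 1.88 with ATL mice 2 and 3 alone and 3.17 with mice 4 and 6 alone, both called. Irx3 in ATL was 27.9, 42.9, 13.9 and 38.7 TPM, above MTAL at 11.9, 13 and 13.7 TPM by 1.10 (SE 0.27, adjusted p = 0.000805). That call was lost after quantile normalization (0.55, adjusted p = 0.111) and median ratio rescaling (0.81), with a pseudocount of 5 (0.93), and without ATL mouse 3 (0.91), ATL mouse 6 (0.96) or ATL mice 2 and 3 together (0.83).

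The make-up of the summed Iroquois transcripts differed along the tubule. The sum of the 4 genes was 1.66 ± 0.38 TPM in PTS1, 39.5 ± 3.81 in PTS2, 38.2 ± 2.66 in PTS3 and 223 ± 30.1 in DTL1. The sums of PTS2 and PTS3 lay within 1 SD of each other, and Irx3 made up 45.6% of it in PTS2 and 9.76% in PTS3. Irx2 made up 35.5% in DTL3 and 75.9% in ATL. The ratio of Irx2 to Irx1 was 2.48 to 3.01 among PTS2 mice and 15.5 to 30.9 among ATL mice, so the neighbours of one cluster did not keep a fixed proportion. The ratio of Irx3 to Irx5 was 3.04 to 3.36 among DTL3 mice and 5.99 to 9.3 among PTS2 mice. These shares and ratios are descriptions, with no test.

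**Figure D3:**
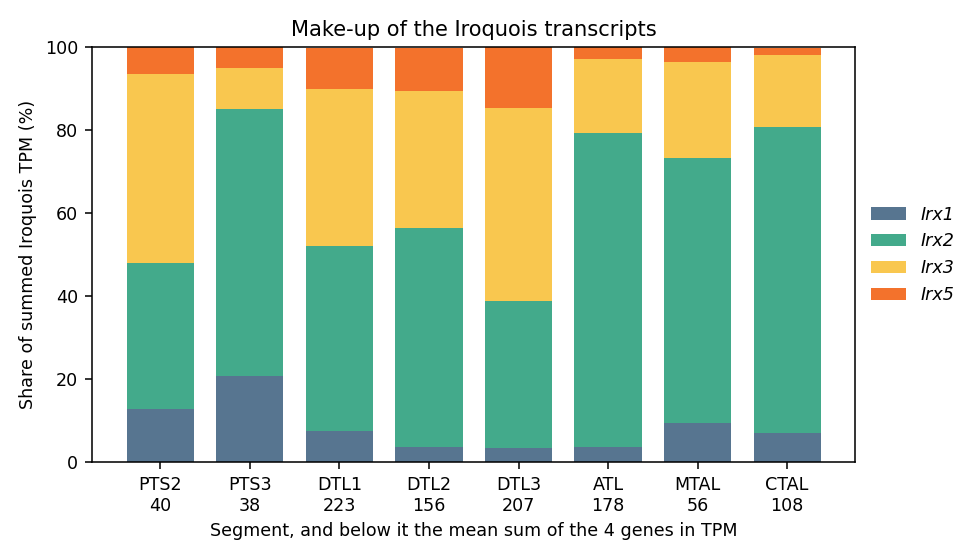
Share of each gene in the summed TPM of Irx1, Irx2, Irx3 and Irx5 (mean over mice, in %) in the 8 segments from PTS2 to CTAL, with the mean sum under each bar. Irx3 makes up 45.6% in PTS2 and 46.6% in DTL3, and Irx2 63.9% to 75.9% from ATL to CTAL.

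A relative in the first cluster, Irx4, was high in 1 segment. It was at 15, 15.3 and 10.7 TPM in the DTL1 mice, at most 1.06 TPM in DTL2 and at most 0.5 TPM in any other mouse. Its margin of 3.15 over DTL2 (SE 0.15, adjusted p = 1.33e-20) was called, and Irx4 was higher in DTL1 than in every other group, as were 2.9% of all genes. Irx6 did not pass the filter and had no group mean above 0.812 TPM. Of the 10 relatives examined, 6 passed the filter, and 5 of these, among them Irx4, were called higher in DTL1 than in PTS3, where 61.8% of all genes were, with a median PTS3 minus DTL1 difference of -1.41 beside -1.33 for all genes. Apart from Irx4, none of the relatives had a group mean above 3.61 TPM.

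At the boundary between the cortical thick limb and the distal convoluted tubule, 4 of the 9 genes were called, all higher in CTAL, where 2.34% of all genes were called higher in CTAL. They were Irx1, Irx2, Irx3 and Sim2. Irx2 was at 69 to 87.7 TPM in the 5 CTAL mice and at 0.025, 0 and 0.065 TPM in the DCT mice, a difference of 6.28 (SE 0.21, adjusted p = 3.83e-27). Irx1 was listed at 0 in all 3 DCT mice, against 6.03 to 9.58 TPM in CTAL (3.08, SE 0.21, adjusted p = 1.03e-15). Irx3 was at 13.1 to 25.7 TPM in CTAL and 2.4, 1.74 and 0.45 TPM in DCT (3.03, SE 0.26, adjusted p = 4.33e-13).

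Irx5 was already low in CTAL, at 1.21 to 3.06 TPM, and its difference of 0.62 was not called (adjusted p = 0.196). Pou3f3, Sim1 and Tfap2b had lower means in DCT by 0.78, 0.77 and 0.80, past the p threshold but under the minimum difference. In the other direction, Tfap2a was higher in DCT by 0.98 (SE 0.26, adjusted p = 0.00766), also past the p threshold and just under the minimum. Summed TPM of 5 intercalated cell genes was 782 to 848 in DCT and 8.23 to 15.3 in CTAL. That of 5 principal cell genes was 514 to 605 in DCT and 48.4 to 89.3 in CTAL. The part of such cells in these differences was not tested. Some genes high in the thick limb were also listed in the DCT mice, and the source of these transcripts was not tested. Umod was at 2173, 1360 and 1890 TPM against 34039 to 38232 TPM in CTAL. Slc12a1 was at 72.3, 19.1 and 1.29 TPM in the same DCT mice, against 5295 to 7548 TPM in CTAL. Cldn16 had means of 3.08 TPM in DCT and 482 TPM in CTAL. Sim2 and Irx1 were listed at 0 in each of those DCT mice.

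Sim2, which encodes the second single-minded factor, was high in the cortical thick limb and listed at 0 in the DCT. Its CTAL mice were at 53.6, 47.9, 53.2, 48 and 51.1 TPM and its DCT mice at 0, a difference of 5.69 (SE 0.36, adjusted p = 2.55e-17). In CNT, CCD, OMCD and IMCD no mouse was above 0.37 TPM. The highest mean was in ATL, at 95, 131, 92.2 and 87.9 TPM, and MTAL followed at 52.1, 72.5 and 50.7 TPM. The ATL and MTAL mice did not overlap, but the difference of 0.79 was not called (adjusted p = 0.0737).

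In the descending limb Sim2 split the short from the long loops. The DTL1 mice were at 60, 58.4 and 31.2 TPM, the DTL2 mice at 3.81, 9.62 and 1.53 TPM, and the DTL3 mice at 0.39, 7.47 and 9.15 TPM. Every DTL1 mouse lay above every mouse of the long descending limb. Sim2 was higher in DTL1 than in DTL2 by 3.44 (SE 0.40, adjusted p = 3.26e-09), 10.9-fold on this scale, where the median of all genes was 0.54 higher in DTL1. Its level in DTL1, 49.9 ± 16.2 TPM, differed from that of CTAL, 50.8 TPM, by 0.08 (SE 0.36, adjusted p = 0.856). In the DTL1 pieces Slc12a1, the cotransporter of the thick limb, was at 1.63, 3.04 and 7.99 TPM and Umod at 393, 295 and 73 TPM, against at least 5295 and 34039 TPM in CTAL. Corin and Slc14a2, which mark short descending limbs, summed to 4517 to 10936 TPM in DTL1.

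The step of Sim2 from DTL3 to ATL was 4.38 (SE 0.37, adjusted p = 4.03e-13), where 2.86% of all genes were called higher in ATL. The call of Sim2 between PTS3 and DTL2 depended on single mice and on the scaling. PTS3 mice were at 2.1, 0.31 and 0.95 TPM and overlapped DTL2, and the difference of 1.24 (SE 0.40, adjusted p = 0.00739) was lost without PTS3 mouse 2 or without DTL2 mouse 2. Given as PTS3 minus DTL2, it was -0.61 with a pseudocount of 5, -0.67 after median ratio rescaling and, in the opposite direction, 0.20 after quantile normalization (adjusted p = 0.762). Only 2 of the 3 DTL2 mice lay above 95% of the receptor genes of the same mouse.

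Sim1 had a much broader outline than Sim2. It was at 0.045, 0.16 and 0.02 TPM in PTS1 and 1.26 to 1.61 TPM in PTS2, a called step of 1.14 (SE 0.22, adjusted p = 5.25e-05) between low levels. That call was lost with a pseudocount of 5, where the PTS1 minus PTS2 difference was -0.33 (adjusted p = 0.299, limma). PTS3, at 3.5, 1.8 and 3.52 TPM, was not called against PTS2. Sim1 then stood at 20.8 to 43.3 TPM in DTL1 and 29.9 to 70.8 TPM in DTL2, above every proximal mouse. The step of 2.98 from PTS3 to DTL1 (SE 0.24, adjusted p = 1.85e-14) and of 3.52 to DTL2 (SE 0.24, adjusted p = 1.21e-16) were both called. Beyond the descending limb no neighbouring pair was called for Sim1. Means ran from 41.6 TPM in DTL3 and 34.8 in ATL to 18.1 in MTAL, 10.5 in DCT and 29.1 in OMCD. The DCT mice, at 12.1, 7.81 and 11.6 TPM, lay below every other mouse from DTL1 to IMCD. Against OMCD the DCT was lower by 1.39 (SE 0.23, adjusted p = 2.67e-06), as were 20.1% of all genes.

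The balance of the single-minded genes differed from segment to segment. Sim2 exceeded Sim1 in every mouse of DTL1, ATL, MTAL and CTAL, where the ratio of Sim1 to Sim2 was 0.474 to 0.721, 0.238 to 0.434, 0.261 to 0.365 and 0.314 to 0.452. Sim1 exceeded Sim2 in every DTL2 mouse, with ratios of 3.11 to 46.1, and from the DCT on Sim1 stood alone. Their partner Arnt was present in every group, at 8.17 TPM in PTS3 to 70.1 TPM in GL. Arnt2 was highest in DCT, 26.9 TPM, and GL, 25.9 TPM, and it was 3.71 lower in CNT than in DCT (SE 0.43, adjusted p = 3.83e-09).

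Pou3f3, the loop of Henle factor, was present in every tubule segment after PTS1. It was at 0.12, 0.205 and 0.04 TPM in PTS1 and at 4.46 to 5.76 TPM in PTS2, a called step of 2.45 (SE 0.21, adjusted p = 2.95e-13). The descending limb held the highest means, at 26.3 TPM in DTL1, 26.2 in DTL2 and 24.9 in DTL3, and the 3 groups overlapped. The step from PTS3 to DTL2 was 2.11 (SE 0.23, adjusted p = 1.72e-10), against a median of 0.71 for all genes. After quantile normalization it was not called, with a PTS3 minus DTL2 difference of -0.81 (adjusted p = 0.0118), and the PTS3 minus DTL1 difference was -0.24 (adjusted p = 0.508). In ATL the mice fell apart, mice 2 and 3 being at 7.58 and 7.97 TPM, mice 4 and 6 at 19.8 and 16.6 TPM, so the ATL mean of 13 TPM describes no single mouse.

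From the ATL on no neighbouring pair of segments was called for Pou3f3. Its means were 11.2 TPM in both thick limb segments, 6.05 in DCT and 21.5 in OMCD. The OMCD mice, at 20.9, 20, 22 and 23.2 TPM, lay above the DCT mice, at 6.81, 5.41 and 5.93 TPM, by 1.68 (SE 0.22, adjusted p = 2.35e-08). Of 5 loop of Henle genes known to depend on Pou3f3 (Umod, Slc12a1, Kcnj1, Bsnd and Ptger3), 4 were called higher in MTAL than in ATL, as were 5.43% of all genes, and Bsnd was called higher in ATL. Pou3f3 itself was not called there, with the MTAL mean of 11.2 TPM lying between the pairs of ATL mice. Pantr1, a long non-coding transcript beside Pou3f3, was higher in PTS2 than in PTS1 by 5.23 (SE 0.17, adjusted p = 7.1e-28), in the same direction as Pou3f3. The pair differed elsewhere, with Pantr1 at 340 TPM in both MTAL and CTAL against 50.2 TPM in ATL, where the difference of 2.78 between MTAL and ATL was called and that of Pou3f3 was not. A same-strand transcript, AC122898.1, overlaps Pou3f3 in the GENCODE M21 annotation and reached 14.7 TPM in DTL3, so reads may have been divided between them.

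**Figure D4:**
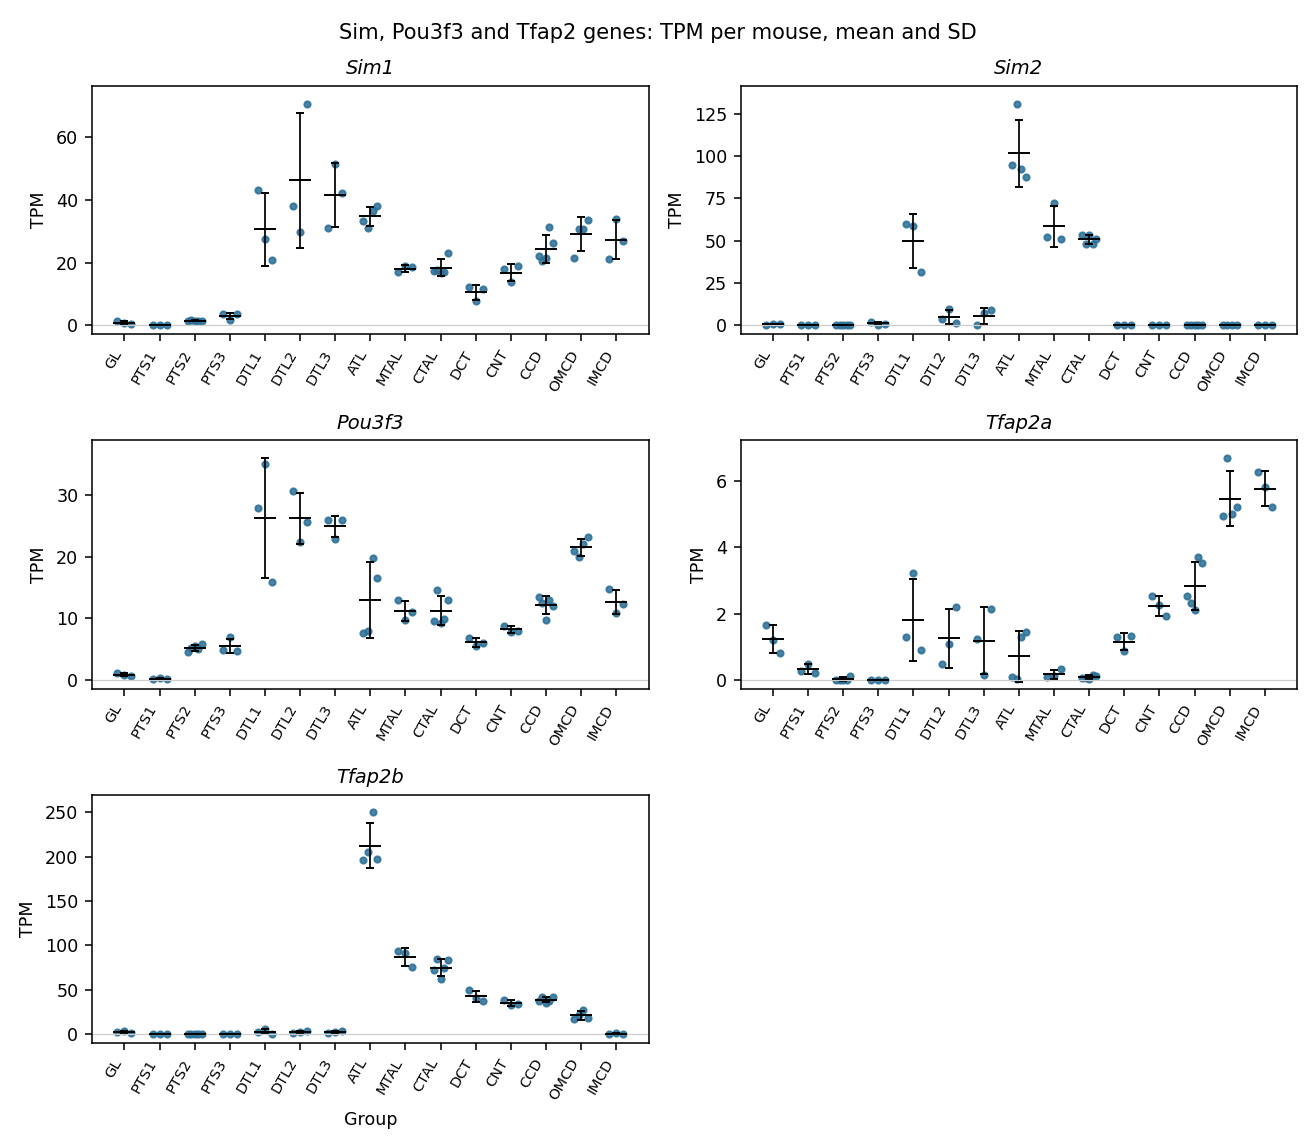
TPM of Sim1, Sim2, Pou3f3, Tfap2a and Tfap2b in each mouse (points) by group in anatomical order, with the mean and SD over mice (bars). Sim2 is high in DTL1 and from ATL to CTAL, Tfap2b from ATL to OMCD, and Tfap2a has its highest means of 5.47 and 5.77 TPM in OMCD and IMCD.

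Tfap2b, the AP-2 gene required in the distal nephron, was first high in the ascending thin limb. It was at 1.59, 2.73 and 3.52 TPM in the DTL3 mice and at 196, 205, 250 and 198 TPM in the ATL mice, a difference of 5.95 (SE 0.27, adjusted p = 2.68e-22), 61.6-fold on this scale. ATL had the highest level of all groups, 212 ± 25.6 TPM, and no other mouse exceeded 94 TPM. The margin over the next group, MTAL, was 1.28 (SE 0.27, adjusted p = 0.00319), and Tfap2b was the only one of the 9 genes called higher in 1 group than in each of the others, as were 0.394% of all genes in ATL. With a pseudocount of 0.1 the margin was 1.29 with a larger error (SE 0.46, adjusted p = 0.632), and after median ratio rescaling the margin was 0.98.

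Beyond MTAL, the only neighbouring pair called for Tfap2b was OMCD and IMCD. MTAL was at 94, 91.3 and 75.2 TPM and CTAL at 61.8 to 84.3 TPM. DCT, CNT and CCD lay between 33.1 and 49.8 TPM in every mouse, with no call among them. OMCD was at 17.1, 21.2, 27.5 and 18.3 TPM, and IMCD at 0.637, 0.853 and 0.11 TPM. The difference between OMCD and IMCD, 3.96 (SE 0.27, adjusted p = 2.12e-16), was called, as were differences of this direction in 15.2% of all genes. Irx3 was the other gene called there, at 2.94 ± 1.09 TPM in OMCD and 0.336 TPM in IMCD (1.52, SE 0.27, adjusted p = 1.05e-05), a call lost with a pseudocount of 5 (0.56) and after quantile normalization (0.75). Summed TPM of 5 intercalated cell genes was 2419 to 3287 in OMCD and 0.333 to 4.79 in IMCD. That of 5 principal cell genes was 26145 to 43772 in OMCD and 27386 to 31630 in IMCD. The part of cell make-up in the differences between OMCD and IMCD was not tested.

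The calls of Tfap2b and Tfap2a at the start of the descending limb rested on low levels. Tfap2b was at 2.44, 5.95 and 0.28 TPM in DTL1, and 1 of these 3 mice lay above 95% of the receptor genes of the same mouse. Its difference from PTS3, 1.44 (SE 0.29, adjusted p = 2.13e-05), was close to the median of all genes, 1.33, and was 0.88 without DTL1 mouse 3. Tfap2a was at 1.28, 3.22 and 0.9 TPM in DTL1, under that level in each mouse, and listed at 0 in all PTS3 mice.

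Tfap2a, the second AP-2 gene, ran against its relative in the collecting duct. Its mean was 0.08 TPM in CTAL and 1.16 TPM in DCT, 2.23 and 2.84 TPM in CNT and CCD, and 5.47 and 5.77 ± 0.523 TPM in the medullary collecting duct. No neighbouring pair among these was called, but OMCD and IMCD mice, at 4.96 to 6.7 TPM and 5.23 to 6.27 TPM, did not overlap the DCT mice, at 0.86 to 1.32 TPM. IMCD was higher than DCT by 1.62 (SE 0.29, adjusted p = 9.73e-06) where Tfap2b was lower by 4.97 (SE 0.29, adjusted p = 4.84e-19). Of all genes, 10.9% were called higher in IMCD and 7.76% higher in DCT. The ratio of Tfap2b to Tfap2a was 14.7 to 17.4 in CNT, 3.16 to 5.5 in OMCD and 0.021 to 0.147 in IMCD. Tfap2a never reached 10 TPM in any of the 93 libraries. Antisense genes overlap it in GENCODE M21, among them Gm47061 with 5.12 TPM in IMCD and Gm26688 with 3.72 TPM in OMCD, and the sources used here do not say that counting used strand, so reads of Tfap2a and these partners cannot be told apart. Irx3os, antisense to Irx3, had no group mean above 3.71 TPM.

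Kctd1 encodes a protein that binds AP-2 factors. It was at 13.7 TPM in ATL, 25.1 in MTAL, 33 in CTAL and 46.2 in DCT, and 1.77 lower in CNT than in DCT (SE 0.28, adjusted p = 4.02e-06), while Tfap2b differed by 0.27 there. Kctd15, a close relative, was highest in ATL at 16.4 TPM. Cited2, a coactivator of AP-2 proteins, was at 28.7 TPM or more in all groups. Of these 5 partner genes, Arnt and Arnt2 included, 2 were called between DCT and CNT, both higher in DCT, as were 1.52% of all genes. Of the 6 transcripts beside the factors, 5 were in the table, and 4 of these were called higher in DTL1 than in PTS3, a share to be read against the 61.8% of all genes called that way.

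**Figure D5:**
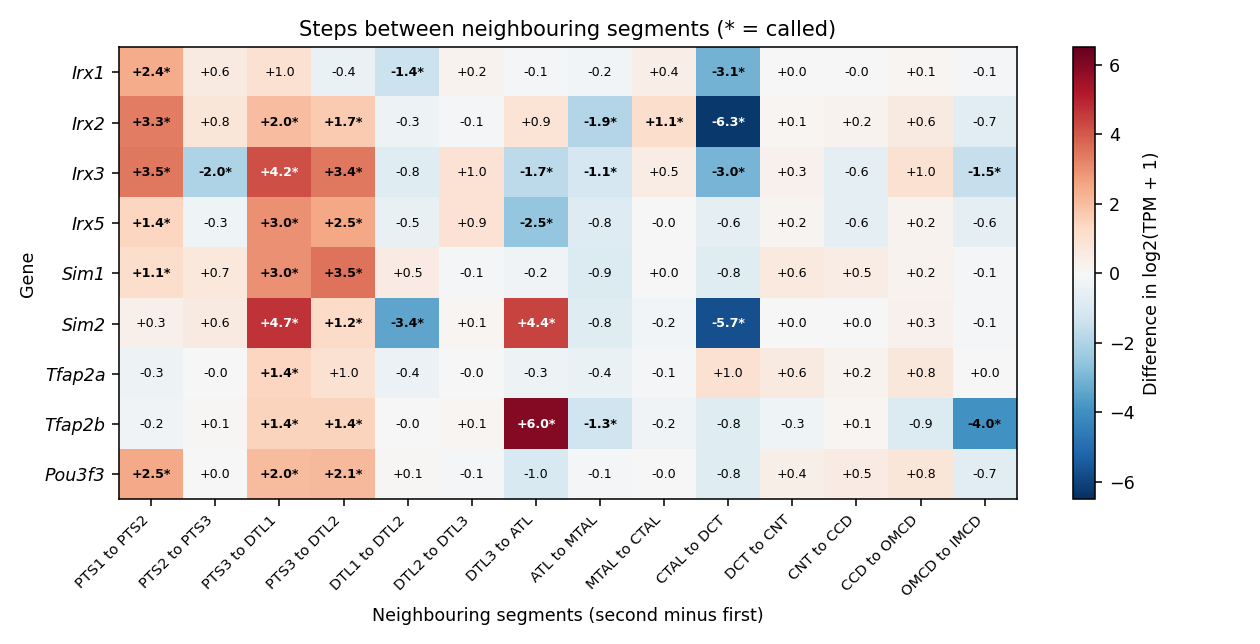
Difference in mean log2(TPM + 1), second segment minus first, of each gene (rows) at the 14 pairs of neighbouring segments (columns), with called differences marked by an asterisk and bold type. Calls cluster at PTS1 to PTS2, PTS3 to the descending limb, DTL3 to ATL and CTAL to DCT, and none falls between DCT and OMCD.

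The 38 calls of the 9 genes were spread over 10 of the 14 pairs of neighbouring segments. Between PTS1 and PTS2, 6 of the 9 were called, all higher in PTS2, where 5.1% of all genes were. With a pseudocount of 5 the differences of Irx1, Irx5, Pou3f3 and Sim1 there were under the minimum of 1, and those of Irx2 and Irx3 were still called. Between PTS3 and DTL1, 8 of the 9 were called higher in DTL1, where 61.8% of all genes were, and between PTS3 and DTL2, 7 of the 9, where 36.2% were. These shares of all genes are large. Under quantile normalization, which forces 1 distribution on all mice, the descending limb calls of Pou3f3, Tfap2a and Tfap2b were lost. Those of Irx2 and Sim2 in DTL2 were lost as well. Irx2 also lost both calls after median ratio rescaling, with PTS3 minus descending limb differences of -0.92 and -0.68. Sim2 lost its DTL2 call there, with a PTS3 minus DTL2 difference of -0.67. Between DTL3 and ATL 2 genes were called higher in DTL3, where 11.8% of all genes were, and 2 higher in ATL, where 2.86% were. Between ATL and MTAL 3 genes were called, all higher in ATL, as were 22.6% of all genes.

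Along the long descending limb, from DTL2 to DTL3, limma called 0 of the 9 genes, where 9.58% of all genes were called in either direction, and the same 2 genes, Irx3 and Irx5, passed an unadjusted p of 0.05 and the adjusted threshold (adjusted p = 0.0125 and 0.02), as did 31.1% and 19.4% of all genes. They missed the call on the minimum difference. In the distal tubule and cortical collecting duct, limma called 0 of 9 between DCT and CNT, 0 between CNT and CCD and 0 between CCD and OMCD. The shares of all genes called there in either direction were 5.22%, 1.12% and 12.1%. At an unadjusted p under 0.05 these comparisons held 2, 4 and 5 of the 9 genes, beside 18%, 6.99% and 39.7% of all genes. None of those in the first and second comparison passed the adjusted threshold, whereas all 5 between CCD and OMCD (Irx2, Irx3, Pou3f3, Tfap2a and Tfap2b) passed it, as did 28.2% of all genes, and missed only the minimum difference.

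In the glomerulus all 9 genes were at low levels, from Irx5 at 0.6 TPM to Irx2 at 3.23 TPM. Irx2 in 1 of 3 mice was the only value above 95% of the receptor genes of the same mouse. In PTS1 none of the 9 genes had a mean above 0.738 TPM.

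Likeness was measured by Pearson's r between group means of log2(TPM + 1) over the 15 groups, which share their libraries, among genes with a group mean of at least 10 TPM. Irx1 and Irx2 were each other's nearest gene (r = 0.957), and Irx3 was near both Irx5 (r = 0.935) and Irx2 (r = 0.911). Irx5 was most like Crnde, a long non-coding transcript of its cluster (r = 0.964), which was at 34.8 TPM in DTL1, 24.7 in DTL2 and 36.3 in DTL3. Pou3f3 and Sim1 were alike (r = 0.93), and both were close to Epcam, an epithelial adhesion molecule (r = 0.946 and 0.967), and Sim1 to the homeobox gene Hoxb7 (r = 0.951). Tfap2b was nearest to Bsnd, the barttin subunit of kidney chloride channels (r = 0.973), which was at 2241 ± 899 TPM in ATL. Tfap2a was nearest to P2ry14 (r = 0.979), and Sim2 to the tight-junction gene Cldn19 (r = 0.909). Cldn19 was at 913 TPM in ATL, 318 in MTAL, 390 in CTAL and 137 in DTL1. With Spearman's rho in place of r, 1 to 4 of the 5 nearest genes of each member were the same. Bsnd was then not among the 5 nearest to Tfap2b, Cldn19 not among those of Sim2, and Epcam not among those of Pou3f3 or Sim1, and the nearest were Nrbp2 for Tfap2b (rho = 0.95) and Irx2 for Sim2 (rho = 0.939).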

How the data were processed

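Glomeruli and tubule segments were microdissected and, per the labels' protocols, their RNA (Direct-zol) was turned into cDNA by SMARTer V4 chemistry, then into Nextera XT libraries. The deposited values are TPM made by the authors, with library sums of 999999 to 1000190. The submitters' processing notes name STAR 2.5.4a and RSEM 1.3.0; the genome build and annotation of the TPM table are not given in the sources used here. Read depth cannot be had from TPM and is unknown here, and no counting interval is given. All 93 sample columns were used; a column named for PTS2 that matched no title entered as an unnumbered mouse of that group. The 3 single-cell samples were not analysed here.

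Pieces of a mouse were averaged as log2(TPM + 1) for tests and as TPM for printed levels. Genes with at least 1 TPM in at least 3 mice were fitted in limma 3.58.1 (R 4.3.3, with a trended prior), where the 15 groups shared 1 spread. The moderated F-test compared all groups. The 14 neighbouring pairs and the other printed pairs were tested by two-sided contrasts, and a gene marking 1 group by the largest one-sided p of its 14 contrasts, each adjusted by Benjamini-Hochberg over all genes tested. Log2 differences on this scale understate the change of low genes. Fits were tested on simulated data. Overlapping genes came from GENCODE M21, in which 54495 of 54532 gene identifiers were found, and promoter windows and neighbouring genes from RefSeq. Named genes were the 9 factors, lists of their relatives, partners, neighbouring transcripts, Pou3f3-dependent loop genes and nephron patterning regulators, and the 5 genes most like each factor. These genes, lists and tests were chosen with earlier results of these data known. The alternatives used pseudocounts of 0.1 or 5, a 5 TPM filter or no filter, median ratio rescaling, quantile normalization, pieces averaged as TPM, libraries as replicates, a replicate block, protein-coding genes alone, and leaving out each mouse or pairs of ATL mice. Python 3.11.15 with pandas 2.3.3 and matplotlib 3.10.9 made the tables and figures.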

Additional observations from a re-analysis of the deposited data

Results flagged for a closer look

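In groups of 4 or 5 mice, the highest or lowest mouse was compared with the others by Dixon's criterion, which chance alone meets in about 1 group in 20. Of 35 combinations of gene and group examined, 6 had a mouse that stood far from the rest.

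In ATL, Irx1 was at 3.4 TPM in mouse 2 and at 7.35 to 7.67 TPM in the other mice. Tfap2b was at 250 TPM in ATL mouse 4 and at 196 to 205 TPM in the others, and Sim2 was at 131 TPM in ATL mouse 3 and at 87.9 to 95 TPM in the others. A different mouse stood apart for each of these genes. In OMCD, mouse 2 stood apart for both Irx5, at 0.08 TPM against 0.985 to 1.06 TPM, and Tfap2a, at 6.7 TPM against 4.96 to 5.23 TPM. In CTAL, Sim1 was at 23.1 TPM in mouse 5 and at 16.7 to 17.7 TPM in the other mice. Leaving out each of these mice in turn lost 1 of the named calls, that of Irx3 between ATL and MTAL, which was 0.91 without ATL mouse 3.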

How the results depend on the processing

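All 9 genes differed among the groups under every alternative run. The 38 called neighbouring differences were 28 with a pseudocount of 5, 48 with a pseudocount of 0.1, 32 after quantile normalization and 37 to 41 leaving out 1 mouse at a time. The count of genes marking 1 group, 1 in the fit as reported, was 0 with a pseudocount of 0.1 and 0 after median ratio rescaling, and 2 with each library as a replicate and 2 with the replicate block. It was 1 to 2 leaving out 1 mouse at a time, being 2 without PTS3 mouse 3 and without DTL1 mouse 5. Where it was 2, the second gene was Irx1 in DTL1. Of 39 named results, 21 kept their direction and call under all alternatives, and 1 reversed: the PTS3 minus DTL2 difference of Sim2 was 0.20 (adjusted p = 0.762, limma) after quantile normalization. That of Sim2 was -0.97 without PTS3 mouse 2 and -0.65 without DTL2 mouse 2. Calls lost numbered 11 under quantile normalization, 10 with a pseudocount of 5, 6 after median ratio rescaling and 2 with a pseudocount of 0.1. The cause was not tested. The highest group was the same for 8 of 9 genes after rescaling. By the study's count of mice, the same number in different segments is not the same animal. Same-numbered mice of different groups had a median correlation of deviations of 0.000185, and 11 of 52 numbered mice correlated best with their own number. In groups this small these values cannot decide whether animals were shared. The replicate block gave 42 neighbouring calls and lost none of the 39 results. Depth is unknown, so levels at or under those of the receptor genes of the same mouse, as in DTL1, GL and ATL mice 4 and 6, cannot be told from background.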

Other observations

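Among 20 other regulators of nephron patterning, all of which differed among the groups in the moderated F-test, 7 marked a single group. In GL they were Wt1, at 175 TPM against at most 3.43 TPM in any tubule segment, and Hey1, at 19.7 TPM, where 3.22% of all genes marked the group. In DTL1 they were Jag1, a Notch ligand, at 151 TPM against at most 37.7 TPM in any other group, and Osr1, at 29.3 TPM, where 2.9% of all genes did. Osr2, a relative of Osr1, was highest in DTL3, at 569 TPM, and was 9.05 lower in ATL (SE 0.23, adjusted p = 1.42e-31, limma), at 0.075 TPM, the segment where Sim2 and Tfap2b were called higher. Of all genes, 0.257% marked DTL3.

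The DCT, where Irx1 and Sim2 were listed at 0, was marked by Lhx1 and Emx1, as it was by 0.21% of all genes. Lhx1 was at 60.7 TPM in DCT and 0.144 TPM in CTAL, and Emx1 at 77.9 and 0.038 TPM. Between CTAL and DCT, 5 of the 20 regulators were called higher in DCT, as were 2.01% of all genes, and 1 was called higher in CTAL. Foxi1, the intercalated cell factor, was among the 5, at 120 TPM in DCT and 0.445 TPM in CTAL. It was at 777 TPM in CNT and 676 TPM in CCD, and at 0.594 TPM in IMCD. Summed TPM of 5 intercalated cell genes, Foxi1 among them, was 782 to 848 in DCT and 8.23 to 15.3 in CTAL. The part of such cells in the DCT values was not tested.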
